A study of Mus musculus with 6 samples.

Results

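The genes described here are the Wnt ligands, their receptors and co-receptors, and the intracellular and feedback genes of the pathway, as measured in mouse bone marrow mesenchymal stem cells of genotype Grx2-/- and Grx2+/+. They were chosen by gene symbol: every Wnt, Frizzled (Fzd), R-spondin (Rspo) and Lgr4 to Lgr6 symbol in the table, and 16 named co-receptor, transcription factor and feedback genes. The rule matched 46 of the 22984 genes in the table. There were 3 libraries of Grx2-/- cells and 3 of Grx2+/+ cells, and the comparison asks how the loss of glutaredoxin 2, a mostly mitochondrial thiol oxidoreductase encoded by Glrx2, alters the transcripts of these cells. The labels name no treatment, age, sex, allele construction or passage, call the cells O-BMSCs in the design text without explaining the prefix, and give no animal or culture of origin for a replicate. The p-values below therefore reflect the spread among these 6 libraries only, and that spread may be technical.

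Values are FPKM, depth-scaled fragments per kilobase of gene length, as the authors deposited them. Means are given ± SD over n = 3 libraries per group. Log2 fold changes are Grx2-/- over Grx2+/+, ± SE, of FPKM + 1, a scale that shrinks the differences of genes with low values. Genes with a mean of at least 1 FPKM over the 6 libraries were tested with limma, two-sided, with Benjamini-Hochberg adjustment over all tested genes, and were called at an adjusted p under 0.05. Depth worked back from the values was 41011482 to 41794919 reads in the Grx2-/- libraries and 40797879 to 41435761 reads in the Grx2+/+ libraries.

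Glrx2 itself had 1, 0 and 0 reads in Grx2-/- replicates 1 to 3 and 756, 800 and 761 reads in Grx2+/+ replicates 1 to 3. Stromal markers were present in both groups, with 5 of 12 higher and 6 of 12 lower in Grx2-/- cells, although some differed widely. Lepr was at 0.0351 FPKM in Grx2-/- and 3.83 FPKM in Grx2+/+ cells. Nt5e was also lower, at 2.10 FPKM in Grx2-/- and 10.8 FPKM in Grx2+/+ cells. Thy1 was higher, at 167 FPKM in Grx2-/- and 11.9 FPKM in Grx2+/+ cells, as was Ly6a, at 362 FPKM in Grx2-/- and 57.5 FPKM in Grx2+/+ cells. Markers of other cells also differed. Summed osteoblast markers ran from 2627 to 3031 FPKM in Grx2-/- and from 5021 to 5392 FPKM in Grx2+/+ libraries, with 7 of 7 tested genes lower. Most of that sum was Col1a1, also a stromal marker, at 2164 FPKM in Grx2-/- and 3757 FPKM in Grx2+/+ cells. Other genes of the list differed far more than the sum. Alpl was at 3.66 FPKM in Grx2-/- and 106 FPKM in Grx2+/+ cells, and Ibsp at 0.487 FPKM in Grx2-/- and 107 FPKM in Grx2+/+ cells. The 10 neutrophil markers summed to 1.81 to 2.12 FPKM in Grx2-/- and 882 to 2563 FPKM in Grx2+/+ libraries, with 7 of 7 tested genes lower and Retnlg and Ly6g at 0 in every Grx2-/- library. The 8 endothelial markers summed to 2.87 to 3.05 FPKM in Grx2-/- and 18.8 to 22.1 FPKM in Grx2+/+ libraries, with 4 of 5 tested genes lower and Tie1 and Cldn5 at 0 in every Grx2-/- library. Of all tested genes 24.6% were lower. A mean of at least 1 FPKM was reached by 1 neutrophil marker in Grx2-/- and 7 in Grx2+/+ cells, and by 1 endothelial marker in Grx2-/- and 6 in Grx2+/+ cells. Most of these genes thus passed the filter on low values through Grx2+/+ cells and had to be lower, so nothing is read from these counts. Macrophage markers summed to 2397 to 3254 FPKM in Grx2-/- and 1461 to 1581 FPKM in Grx2+/+ libraries. Of these markers 9 of 10 were higher, where 42.7% of all tested genes were higher. Most of the macrophage sum was Lyz2, at 2085 FPKM in Grx2-/- and 1195 FPKM in Grx2+/+ cells. Adgre1 rose more than the sum, at 122 FPKM in Grx2-/- and 24.7 FPKM in Grx2+/+ cells, and C1qa was not called. Adipocyte markers summed to 236 to 252 FPKM in Grx2-/- and 83.2 to 142 FPKM in Grx2+/+ libraries (3 of 4 tested genes higher, 1 lower). Most of that sum in Grx2-/- cells was Lpl, at 206 FPKM in Grx2-/- and 51.8 FPKM in Grx2+/+ cells. Fabp4 was lower, at 7.78 FPKM in Grx2-/- and 31.8 FPKM in Grx2+/+ cells. Of the 7 adipocyte markers, 4 averaged at least 1 FPKM in Grx2-/- and 6 in Grx2+/+ cells, so the sum does not stand for the whole list. Smooth muscle markers summed to 879 to 1428 FPKM in Grx2-/- and 2635 to 2885 FPKM in Grx2+/+ libraries (4 of 4 tested genes lower). Skeletal muscle markers summed to 2.58 to 4.23 FPKM in Grx2-/- and 3.49 to 28.4 FPKM in Grx2+/+ libraries (1 of 2 tested genes lower). Lymphoid and erythroid markers summed to at most 0.599 FPKM in Grx2-/- and 2.04 FPKM in Grx2+/+ libraries. These differences run alongside every result below, and their part in them was not tested. In bulk RNA, fewer cells of a type and less RNA per cell cannot be told apart.

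Wnt proteins are lipid-modified secreted ligands that bind Frizzled receptors. With the co-receptors Lrp5 or Lrp6 they keep beta-catenin (Ctnnb1) from being degraded, so that it enters the nucleus and acts with Lef/Tcf factors on target genes; with Ror1, Ror2 or Ryk, some ligands act without beta-catenin. R-spondins, through Lgr4 to Lgr6, hold back the ubiquitin ligases Rnf43 and Znrf3, which otherwise remove Frizzled proteins from the cell surface. In marrow stromal cells the pathway is known for favouring bone formation over fat formation.

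Of the 46 genes, 31 passed the filter on low values and 28 of those were called (90.3%), where 67.4% of all 11083 tested genes were called. In Grx2-/- cells 16 of the 31 were higher (51.6%, against 42.7% of all tested genes) and 12 were lower (38.7%, against 24.6%). Wnt5b, Fzd2 and Axin1 were not called. For 8 of the 31 (Fzd6, Lgr5, Lgr6, Ror1, Wnt10b, Wnt11, Wnt16 and Wnt4), only 1 group reached a mean of 1 FPKM, so they passed the filter through the group in which they were high and had to differ. Among the 23 genes with a mean of at least 1 FPKM in both groups, a restriction chosen after seeing the data, 20 were called (87%, against 65.7% of 10424 genes), of which 12 were higher (52.2%, against 42.2%) and 8 lower (34.8%, against 23.5%). At least 2-fold differences of FPKM + 1 were found for 5 of the 31 genes higher and 5 lower, where 6.49% of all tested genes were higher and 3.54% lower by as much. Of those genes Lgr5, Ror1, Wnt16, Wnt10b, Lgr6 and Wnt4 had passed the filter through 1 group, so nothing is read from these shares. On mean FPKM, Wnt11 (2.43-fold), Fzd4 (2.22-fold) and Nkd1 (2.17-fold) were also at least 2-fold higher, and Fzd6 (2.05-fold) and Wnt9a (2.03-fold) at least 2-fold lower. Without a filter, 38 of all 46 were called (82.6%, against 39.6% of 22984 genes), of which 18 were higher (39.1%, against 23.9%) and 20 were lower (43.5%, against 15.7%). The filter was passed by 31 of the 46 but by 11083 of the 22984 genes, so these unfiltered shares compare sets of unlike level. The FPKM ranges of the 2 groups did not overlap for 29 of the 31 tested genes (93.5%), as for 73.1% of all tested genes. The median log2 fold change was 0.15 over the 31 genes and 0.085 over all tested genes, and with median-of-ratios scaling these were 0.081 and -0.0019. Quantile normalization gave 0.06 over the 31 genes and -0.026 over all tested genes, so small differences are best read against these medians.

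**Figure D1:**
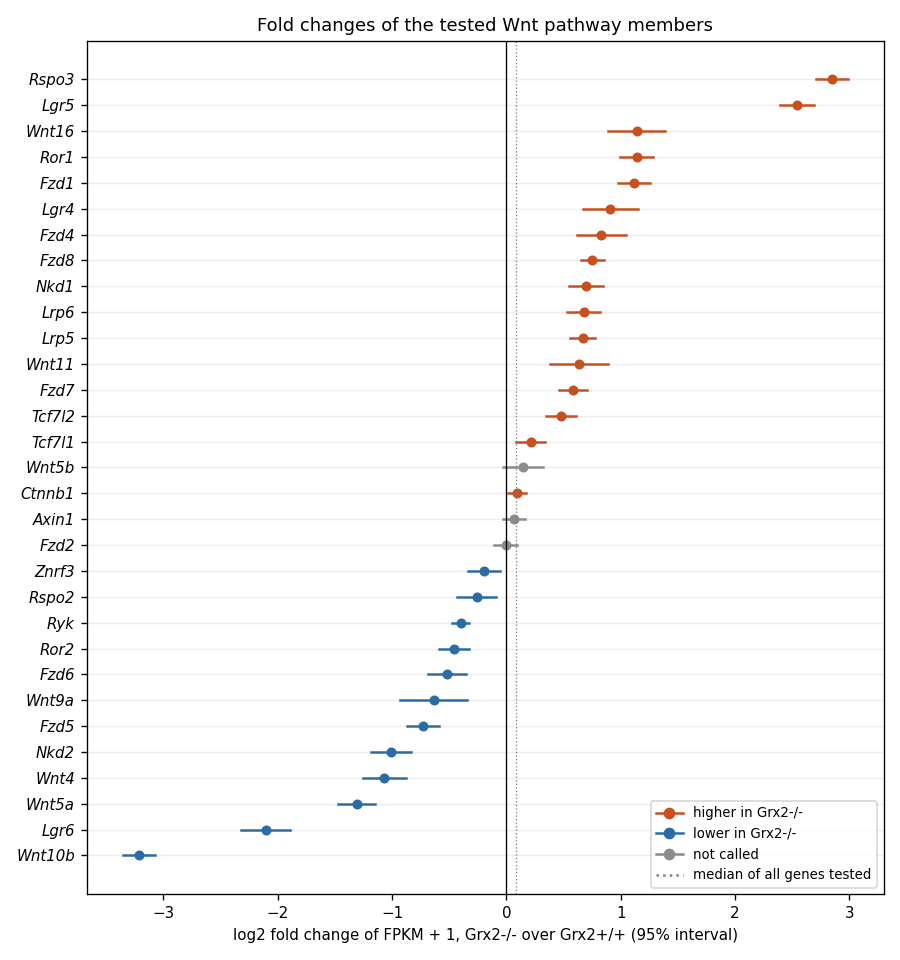
Log2 fold change of FPKM + 1, Grx2-/- over Grx2+/+, with its 95% confidence interval, for the 31 tested genes in order of size, with genes higher in Grx2-/- in orange, lower in blue and not called in grey, and the median of all tested genes as a dotted line. Rspo3 (2.85) and Lgr5 (2.54) lie furthest right, and Wnt10b (-3.21) and Lgr6 (-2.11) furthest left.

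Among the ligands, Grx2-/- cells had less of the ligands that dominated in Grx2+/+ cells and more of several that were near background there. Of 7 tested ligands, Wnt10b, Wnt5a, Wnt4 and Wnt9a fell, Wnt16 and Wnt11 rose, and Wnt5b was not called. Wnt10b, a ligand of the beta-catenin branch that is known to favour osteoblasts over adipocytes in mouse marrow, was at 0.19, 0.157 and 0.143 FPKM in Grx2-/- replicates 1 to 3, against 9.47, 9.44 and 10.5 FPKM in Grx2+/+ replicates 1 to 3. Every Grx2-/- library was far under every Grx2+/+ library. This was the largest log2 fold change in either direction among the 31 tested genes, a value of -3.21 ± 0.06 (limma adjusted p = 9.93e-09). In reads it was 69 in the 3 Grx2-/- libraries together and 4123 in the 3 Grx2+/+ libraries, and the 95% interval of their Grx2+/+ to Grx2-/- ratio, exact and for counting error alone, was 47.3 to 77.3.

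The promoter window of Wnt10b is shown because the gene had the largest log2 fold change. It is the RefSeq window on GRCm38.p6, 250 bases before to 50 after the annotated start, at chr15:98778101-98778400 on the minus strand. It was searched on both strands for the core of the Lef/Tcf recognition sequence, written as CTTTGAA, and for the form CTTTGAT, the form CTTTGTA and the form CTTTGTT, and holds none of these. Over all genes, 5544 of 32851 such windows (16.9%) hold at least 1. Of the 42 windows of the genes described here, 5 (11.9%) hold 1. They belong to 5 of the 32 genes that had a window: Fzd7, Lef1, Tcf7l2, Wnt11 and Wnt5b. A match describes letters in the window and is not evidence of a bound site.
Wnt10b: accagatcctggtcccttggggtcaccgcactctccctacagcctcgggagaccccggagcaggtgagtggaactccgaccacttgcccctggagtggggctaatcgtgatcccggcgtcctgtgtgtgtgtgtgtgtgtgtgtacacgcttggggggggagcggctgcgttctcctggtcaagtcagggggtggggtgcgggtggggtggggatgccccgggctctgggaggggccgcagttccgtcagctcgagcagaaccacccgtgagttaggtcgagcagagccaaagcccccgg

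Wnt5a, a ligand best known for acting through Ror receptors without beta-catenin, was the most abundant ligand per length in both groups. It was at 8.79, 7.19 and 7.73 FPKM in Grx2-/- libraries, against 21.8, 19.8 and 21.4 FPKM in Grx2+/+ libraries. The groups were well apart, and Wnt5a fell by 1.31 ± 0.071 on the log2 scale (limma adjusted p = 1.42e-06). Wnt4, which has been linked to both branches, was at 0.488, 0.267 and 0.3 FPKM in Grx2-/- and 1.83, 1.98 and 1.68 FPKM in Grx2+/+ libraries (log2 fold change -1.07 ± 0.081, adjusted p = 1.04e-05). Wnt9a, a ligand active in developing joints and skeleton, was at 1.51, 0.865 and 1.05 FPKM in Grx2-/- and 1.99, 2.78 and 2.19 FPKM in Grx2+/+ libraries. Its groups did not overlap but came close, and it fell by 0.64 ± 0.13 (adjusted p = 0.00244).

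In the other direction, Wnt16, a ligand known in mice for protecting cortical bone, was at 2.25, 1.5 and 1.8 FPKM in Grx2-/- libraries and 0.167, 0.323 and 0.376 FPKM in Grx2+/+ libraries. The lowest Grx2-/- value was several times the highest Grx2+/+ value, and the log2 fold change was 1.14 ± 0.11 (limma adjusted p = 3.66e-05). Wnt11, which acts mainly without beta-catenin, was at 1.83, 1.32 and 1.44 FPKM in Grx2-/- and 0.42, 0.788 and 0.682 FPKM in Grx2+/+ libraries (0.64 ± 0.11, adjusted p = 0.00109). Wnt5b, the paralog of Wnt5a, was at 2.21, 2.06 and 1.75 FPKM in Grx2-/- and 1.87, 1.6 and 1.67 FPKM in Grx2+/+ libraries. These ranges overlapped, and the difference of 0.15 had a 95% interval of -0.03 to 0.32 (adjusted p = 0.12). Without Grx2-/- replicate 3 it was 0.21 and passed (adjusted p = 0.0482), in a range of 0.0482 to 0.527 over 16 alternatives.

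The other 6 ligands lay under the filter and are described by reads, with the fit that used no filter. Wnt7b, a ligand active in bone-forming cells, had 0, 3 and 0 reads in Grx2-/- and 247, 186 and 145 reads in Grx2+/+ libraries. Its total was 3 reads in Grx2-/- against 578 in Grx2+/+ libraries, a Grx2+/+ to Grx2-/- ratio of 193 with an exact interval of 65.9 to 941 (limma adjusted p = 0.000584). Wnt10a, the paralog of Wnt10b, showed the opposite pattern, with 43, 75 and 58 reads in Grx2-/- and 0, 1 and 2 reads in Grx2+/+ libraries. The Grx2-/- to Grx2+/+ ratio was 58.4, with an exact interval of 19.7 to 286 (adjusted p = 0.000944). Wnt2 had 73, 55 and 55 reads in Grx2-/- and 7, 7 and 6 in Grx2+/+ libraries (ratio 9.11, interval 5.73 to 15.3), whereas its paralog Wnt2b had 16, 12 and 20 in Grx2-/- and 98, 98 and 81 in Grx2+/+ libraries (Grx2+/+ to Grx2-/- ratio 5.80, interval 4.25 to 8.05). Both differences passed without the filter (adjusted p = 0.000205 for Wnt2 and 0.000163 for Wnt2b). Wnt6 had 3 to 10 reads in Grx2-/- and 1 to 6 in Grx2+/+ libraries, and Wnt1 had 0 in every Grx2-/- library and 0 to 2 in Grx2+/+ libraries. Neither passed (adjusted p = 0.347 for Wnt6 and 0.253 for Wnt1), and a difference was not detectable at this depth.

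Summed over the 13 ligands, the level was 18.7, 15.1 and 15.8 FPKM in Grx2-/- and 39.7, 38.6 and 40.0 FPKM in Grx2+/+ libraries. The lowest Grx2+/+ sum was above the highest Grx2-/- sum. Wnt5a made up 47.9% ± 1.02 of the sum in Grx2-/- and 53.3% ± 1.74 in Grx2+/+ cells. Wnt10b made up 0.988% ± 0.0709 in Grx2-/- and 24.8% ± 1.25 in Grx2+/+ cells, and Wnt16 made up 11.1% ± 1.04 in Grx2-/- and 0.732% ± 0.275 in Grx2+/+ cells. After Wnt5a, Grx2-/- cells thus had Wnt5b and Wnt16 as the next ligands, at 12.2% and 11.1% of the sum, where Grx2+/+ cells had Wnt10b.

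**Figure D2:**
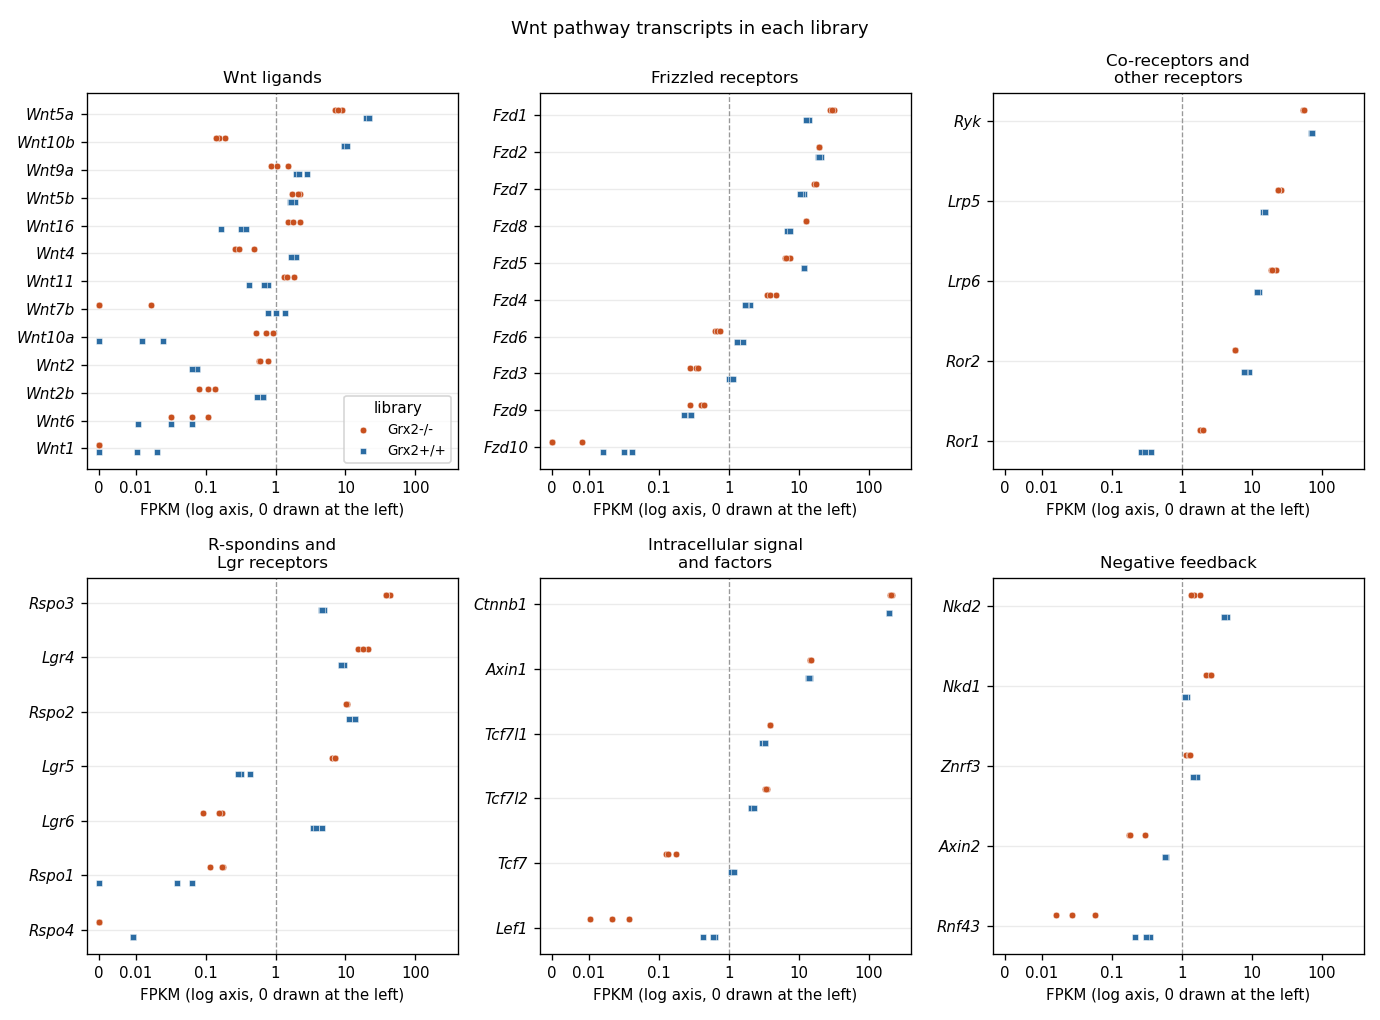
FPKM of each of the 46 genes in every library, on a log axis with 0 drawn at the left, in 6 panels by role; orange circles are Grx2-/- libraries, blue squares are Grx2+/+ libraries, and the dashed line marks 1 FPKM. The 3 libraries of a group lie close together for most genes above 1 FPKM, and wide gaps between the groups are seen for Wnt10b, Wnt7b, Wnt10a, Lgr5 and Lgr6.

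The Frizzled receptors were higher in Grx2-/- cells as a sum, 91.9 ± 4.08 FPKM in Grx2-/- and 67.9 ± 1.75 FPKM in Grx2+/+ cells. Of 7 tested receptors, Fzd1, Fzd4, Fzd7 and Fzd8 rose, Fzd5 and Fzd6 fell, and Fzd2 was not called. Fzd1 was at 32.3, 27.9 and 29.7 FPKM in Grx2-/- and 13.1, 14.0 and 12.7 FPKM in Grx2+/+ libraries, a log2 fold change of 1.12 ± 0.06 (limma adjusted p = 1.38e-06). The lowest Grx2-/- value was well above the highest Grx2+/+ value, and the means differed 2.26-fold. Fzd4, which also serves as the receptor of norrin, was at 4.78, 3.59 and 3.84 FPKM in Grx2-/- and 2.00, 1.79 and 1.73 FPKM in Grx2+/+ libraries (0.83 ± 0.092, adjusted p = 8.76e-05). Fzd8 was at 12.7, 12.7 and 13.0 FPKM in Grx2-/- and 7.27, 6.88 and 7.41 FPKM in Grx2+/+ libraries (0.75 ± 0.044, adjusted p = 2.12e-06). The replicates of Fzd8 were close to each other in both groups, and no Grx2-/- library came near the Grx2+/+ range.

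Fzd7 was at 17.4, 16.4 and 17.7 FPKM in Grx2-/- and 11.8, 11.1 and 10.5 FPKM in Grx2+/+ libraries, 0.58 ± 0.052 higher (limma adjusted p = 2.62e-05). Its promoter window, at chr1:59481897-59482196 on the plus strand of GRCm38.p6 (RefSeq), is printed because Fzd7 was the only Frizzled gene with a match to the Lef/Tcf core among those that had a window. The capitals mark the match, which reads CTTTGTT on the minus strand. Its first base as printed lies 130 bases before the start.
Fzd7: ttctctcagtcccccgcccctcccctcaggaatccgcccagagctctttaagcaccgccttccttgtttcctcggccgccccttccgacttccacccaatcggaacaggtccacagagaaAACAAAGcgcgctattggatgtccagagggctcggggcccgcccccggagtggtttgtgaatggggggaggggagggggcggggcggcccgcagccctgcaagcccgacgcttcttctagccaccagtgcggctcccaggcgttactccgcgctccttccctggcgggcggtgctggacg

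Fzd5, a close relative of Fzd8 in sequence, went the other way. It was at 7.54, 6.35 and 6.64 FPKM in Grx2-/- and 12.1, 11.8 and 12.0 FPKM in Grx2+/+ libraries, a fall of 0.73 ± 0.061 on the log2 scale (limma adjusted p = 1.82e-05). Fzd6, which is known for orienting hair follicles in mouse skin, was at 0.648, 0.68 and 0.764 FPKM in Grx2-/- and 1.33, 1.63 and 1.32 FPKM in Grx2+/+ libraries (-0.52 ± 0.072, adjusted p = 0.00034). Fzd2, a relative of Fzd1 and Fzd7, had 19.7, 19.5 and 19.8 FPKM in Grx2-/- and 20.8, 19.0 and 19.3 FPKM in Grx2+/+ libraries. The groups overlapped, and the 95% interval of the log2 difference was -0.10 to 0.10 (adjusted p = 0.938). After quantile normalization it was -0.14 (adjusted p = 0.035, the lowest over 17 alternatives, whose highest was 0.978). Under the filter, Fzd3, a receptor of axon guidance, was at 0.28, 0.341 and 0.369 FPKM in Grx2-/- and 1.03, 1.08 and 1.16 FPKM in Grx2+/+ libraries (adjusted p = 0.000136 without the filter). Fzd10 had 0 to 1 reads in Grx2-/- and 2 to 5 in Grx2+/+ libraries (adjusted p = 0.033 without the filter), and Fzd9 had 24 to 38 reads in Grx2-/- and 20 to 25 in Grx2+/+ libraries (95% interval of the log2 difference -0.01 to 0.24, adjusted p = 0.128).

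The order of the receptors by level differed. In Grx2-/- cells Fzd1 stood first with 32.6% of the Frizzled sum, followed by Fzd2 with 21.4%, Fzd7 with 18.7% and Fzd8 with 13.9%. In Grx2+/+ cells Fzd2 stood first with 29.0%, followed by Fzd1 with 19.5% and Fzd5 with 17.6%. The next in Grx2+/+ cells, Fzd7 at 11.1 ± 0.627 FPKM, lay close under Fzd5 at 12.0 ± 0.179 FPKM.

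Both co-receptors of the beta-catenin branch rose. Lrp5, whose mutations alter bone mass in humans and mice, was at 25.9, 23.9 and 23.6 FPKM in Grx2-/- and 14.5, 15.3 and 15.3 FPKM in Grx2+/+ libraries (log2 fold change 0.67 ± 0.046, limma adjusted p = 6.07e-06). Lrp6 was at 21.9, 18.6 and 19.4 FPKM in Grx2-/- and 11.8, 12.5 and 12.0 FPKM in Grx2+/+ libraries (0.68 ± 0.061, adjusted p = 2.91e-05). The changes of the 2 paralogs were of like size, 1.63-fold for Lrp5 and 1.65-fold for Lrp6 on the means. The Ror receptors, which bind Wnt5a, moved in opposite directions. Ror1 was at 1.82, 1.81 and 2.00 FPKM in Grx2-/- and 0.262, 0.36 and 0.296 FPKM in Grx2+/+ libraries, 1.14 ± 0.063 higher (adjusted p = 1.62e-06). Ror2, the more abundant of the pair in both groups, was at 5.83, 5.73 and 5.75 FPKM in Grx2-/- and 9.03, 8.03 and 7.85 FPKM in Grx2+/+ libraries, 0.46 ± 0.057 lower (adjusted p = 0.000193). Neither gene's groups overlapped. Ryk, a kinase-related Wnt receptor and the most abundant receptor of the set per length, was at 53.6, 53.3 and 55.5 FPKM in Grx2-/- and 72.1, 70.6 and 72.3 FPKM in Grx2+/+ libraries (-0.40 ± 0.031, adjusted p = 1.27e-05).

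Among the 31 tested genes, Rspo3 and the R-spondin receptor Lgr5 had the largest positive log2 fold changes of FPKM + 1. Rspo3 was at 43.2, 38.4 and 37.5 FPKM in Grx2-/- and 4.86, 4.51 and 4.59 FPKM in Grx2+/+ libraries. Every Grx2-/- library was several times above every Grx2+/+ library, 8.54-fold on the means, and the log2 fold change was 2.85 ± 0.06 (limma adjusted p = 1.57e-08). Rspo2, known for its part in limb and lung development, was at 10.4, 10.5 and 10.3 FPKM in Grx2-/- and 13.6, 11.1 and 13.5 FPKM in Grx2+/+ libraries. It fell by 0.26 ± 0.074 (adjusted p = 0.0142), but not without Grx2+/+ replicate 1 (adjusted p = 0.0515) or Grx2+/+ replicate 3 (adjusted p = 0.0581), in a range of 0.000229 to 0.0581 over 17 alternatives. Rspo1 had 9 to 14 reads in Grx2-/- and 0 to 5 in Grx2+/+ libraries (adjusted p = 0.00915 without the filter), and Rspo4 had 0 reads in every Grx2-/- library and 1 in each Grx2+/+ library (adjusted p = 0.092). The R-spondin sum was 50.3 ± 3.13 FPKM in Grx2-/- and 17.4 ± 1.59 FPKM in Grx2+/+ cells. Rspo3 made up 78.9% ± 1.19 of the R-spondin sum in Grx2-/- and 26.8% ± 1.86 in Grx2+/+ cells, and Rspo2 made up 20.8% ± 1.21 in Grx2-/- and 72.9% ± 1.69 in Grx2+/+ cells. The leading R-spondin was thus Rspo3 in Grx2-/- cells and Rspo2 in Grx2+/+ cells.

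Lgr5, the R-spondin receptor known as a marker of intestinal stem cells, was at 6.50, 7.03 and 7.0 FPKM in Grx2-/- and 0.323, 0.288 and 0.435 FPKM in Grx2+/+ libraries, a 19.6-fold difference of the means and a log2 fold change of 2.54 ± 0.064 (limma adjusted p = 3.78e-08). Lgr6, its paralog and a marker of skin stem cells that is also expressed in osteoblast precursors, was at 0.174, 0.155 and 0.092 FPKM in Grx2-/- and 3.41, 4.58 and 3.80 FPKM in Grx2+/+ libraries. It fell by 2.11 ± 0.091 on the log2 scale (adjusted p = 4.4e-07), with 28-fold lower means in Grx2-/- cells. The ranges of each gene were far apart. Lgr4, which is expressed in many tissues, was at 20.8, 15.0 and 17.6 FPKM in Grx2-/- and 8.55, 9.52 and 8.74 FPKM in Grx2+/+ libraries (0.91 ± 0.1, adjusted p = 0.000105). The Lgr sum was 24.8 ± 2.63 FPKM in Grx2-/- and 13.2 ± 1.07 FPKM in Grx2+/+ cells. Lgr4 supplied most of it in both groups, 71.5% ± 4.06 in Grx2-/- and 67.7% ± 1.74 in Grx2+/+ cells. The remainder was Lgr5 in Grx2-/- cells, 27.9% ± 4.04 against 2.66% ± 0.676 in Grx2+/+ cells. Lgr6 made up 0.568% ± 0.172 in Grx2-/- and 29.6% ± 2.04 in Grx2+/+ cells.

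**Figure D3:**
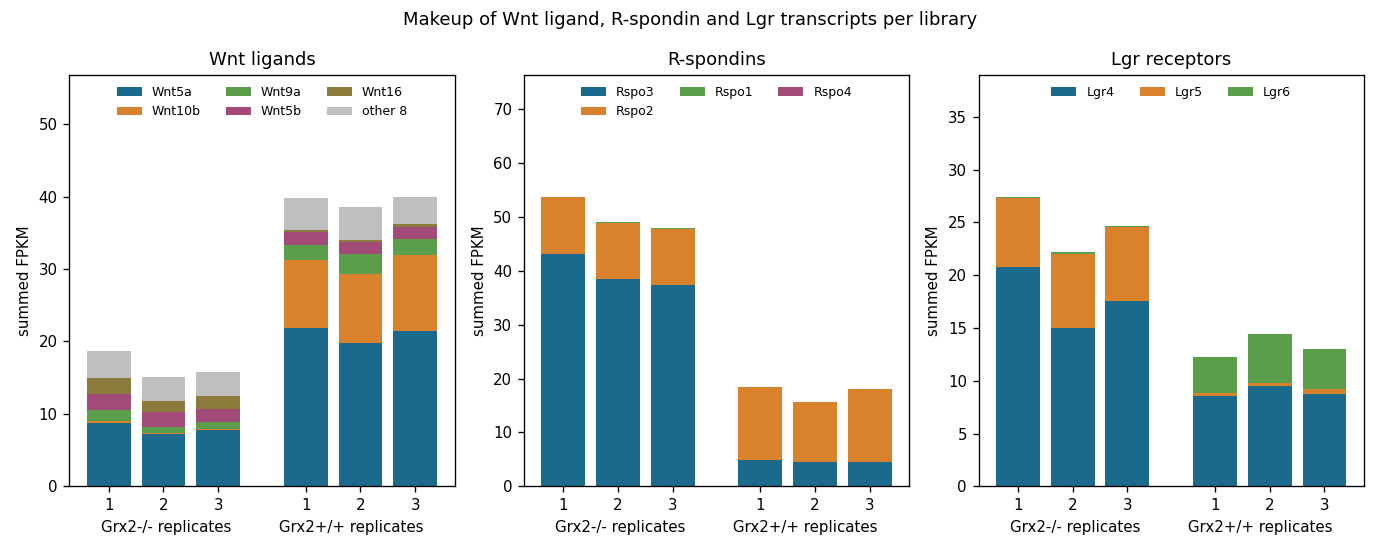
Summed FPKM of the Wnt ligands, the R-spondins and the Lgr receptors in each library, Grx2-/- replicates left of Grx2+/+ replicates, with each bar divided by gene. Wnt10b is a thin band in Grx2-/- bars and 24.8% of the ligand sum in Grx2+/+ cells, Rspo3 fills most of the Grx2-/- R-spondin bars, and the upper part of the Lgr bars is Lgr5 in Grx2-/- and Lgr6 in Grx2+/+ libraries.

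Inside the cell, the transcripts of beta-catenin and the scaffold Axin1 differed little, whereas the Lef/Tcf factors divided. Ctnnb1 was at 216, 202 and 209 FPKM in Grx2-/- and 196, 199 and 194 FPKM in Grx2+/+ libraries. Its log2 fold change of 0.09 ± 0.034 (limma adjusted p = 0.0465) was near the 0.085 median of all tested genes and turned to -0.012 with median-of-ratios scaling. It did not pass without Grx2-/- replicate 1 (0.089), Grx2-/- replicate 3 (0.116), Grx2+/+ replicate 1 (0.11), Grx2+/+ replicate 2 (0.0582) or Grx2+/+ replicate 3 (0.149, all limma adjusted p). It also did not pass with the replicate number as a block (0.0598), without the filter (0.0708), without the trend (0.0958), after quantile normalization (0.613) or without both libraries that stood apart (0.0573). Its adjusted p lay in a range of 0.0205 to 0.769 over 17 alternatives. Axin1, which holds the complex that degrades beta-catenin, was at 14.5, 14.3 and 15.0 FPKM in Grx2-/- and 13.5, 14.3 and 13.9 FPKM in Grx2+/+ libraries, with a 95% interval of -0.03 to 0.16 for the log2 difference (adjusted p = 0.167). The log2 difference of Axin1 was 0.07 on the deposited scale, -0.026 with median-of-ratios scaling and -0.072 after quantile normalization.

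Lef1 and Tcf7, the factors that mostly activate target genes with beta-catenin, were lower in Grx2-/- cells, and Tcf7l1 and Tcf7l2 were higher. Lef1 had 2, 4 and 7 reads in Grx2-/- and 79, 119 and 114 reads in Grx2+/+ libraries, a Grx2+/+ to Grx2-/- ratio of 24.1 of the read totals (exact interval 13.9 to 45.8) with an adjusted p of 0.000437 in the limma fit without the filter. Tcf7 had 94, 66 and 71 reads in Grx2-/- and 577, 562 and 623 reads in Grx2+/+ libraries (Grx2+/+ to Grx2-/- ratio 7.66, interval 6.67 to 8.82, adjusted p = 2.26e-05). Both genes are also expressed in lymphocytes, whose 6 markers in the table summed to 0.233 to 0.599 FPKM in Grx2-/- and 1.16 to 2.04 FPKM in Grx2+/+ libraries, with Ms4a1 and Cd3d at 0 in every Grx2-/- library. The part of such cells in the difference was not tested. Tcf7l2 was at 3.52, 3.28 and 3.38 FPKM in Grx2-/- and 2.06, 2.11 and 2.29 FPKM in Grx2+/+ libraries, 0.48 ± 0.056 higher (adjusted p = 0.000126). Tcf7l1, which mostly represses, was at 3.86, 3.88 and 3.95 FPKM in Grx2-/- and 3.02, 3.32 and 3.34 FPKM in Grx2+/+ libraries, 0.21 ± 0.054 higher (adjusted p = 0.00814, but 0.0507 with median-of-ratios scaling and 0.101 after quantile normalization, from 0.00192 to 0.101 over 16 alternatives). The Lef/Tcf sum was 7.46 ± 0.143 FPKM in Grx2-/- and 7.06 ± 0.409 FPKM in Grx2+/+ cells, of which Lef1 and Tcf7 made up 0.311% and 1.96% in Grx2-/- cells against 7.84% and 15.9% in Grx2+/+ cells.

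Axin2 is the transcript most often read as a target of beta-catenin with Lef/Tcf, and its protein feeds back on the pathway as a scaffold like Axin1. It lay under the filter, at 0.303, 0.176 and 0.185 FPKM in Grx2-/- and 0.585, 0.605 and 0.58 FPKM in Grx2+/+ libraries. All 3 Grx2-/- values were below the Grx2+/+ range. In reads these were 70, 40 and 42 in Grx2-/- and 132, 138 and 133 in Grx2+/+ libraries, a Grx2+/+ to Grx2-/- ratio of 2.66 (exact interval 2.20 to 3.23), with an adjusted p of 0.00115 in the limma fit without the filter. The promoter windows of Axin2 and Lef1 (RefSeq, GRCm38.p6, plus strand) are printed because both genes are known targets of the pathway and both were lower in Grx2-/- cells. Direction was part of that choice, so the pair does not stand for the pathway's targets. Of the feedback genes given below, Nkd1 was higher and Nkd2 lower. The Axin2 window, at chr11:108920099-108920398, and the Lef1 window of its most upstream start, at chr3:131110047-131110346, hold none of the searched cores. The last of the 4 Lef1 windows, at chr3:131156044-131156343, holds CTTTGTA on the minus strand, marked in capitals. The first base of this match as printed lies 147 bases before the start of that window's transcript.
Axin2: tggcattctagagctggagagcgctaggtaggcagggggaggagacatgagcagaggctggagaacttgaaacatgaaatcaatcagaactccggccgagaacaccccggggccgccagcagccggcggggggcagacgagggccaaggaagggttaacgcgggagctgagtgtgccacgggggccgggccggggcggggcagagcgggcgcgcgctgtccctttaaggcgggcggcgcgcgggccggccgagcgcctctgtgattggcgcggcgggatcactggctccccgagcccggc
Lef1 (upstream start): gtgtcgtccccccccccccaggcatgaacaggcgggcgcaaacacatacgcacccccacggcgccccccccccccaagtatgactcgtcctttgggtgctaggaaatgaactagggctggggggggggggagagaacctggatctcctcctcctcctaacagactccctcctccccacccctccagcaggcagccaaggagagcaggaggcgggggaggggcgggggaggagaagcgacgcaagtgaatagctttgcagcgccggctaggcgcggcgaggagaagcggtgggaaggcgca
Lef1 (downstream start): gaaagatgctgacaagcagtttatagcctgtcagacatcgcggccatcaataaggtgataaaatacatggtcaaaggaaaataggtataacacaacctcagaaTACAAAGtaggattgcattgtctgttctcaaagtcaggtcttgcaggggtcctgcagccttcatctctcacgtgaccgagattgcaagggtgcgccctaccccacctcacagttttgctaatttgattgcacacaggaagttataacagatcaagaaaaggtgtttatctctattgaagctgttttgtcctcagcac

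The other feedback genes did not move together. Nkd1 and Nkd2 encode naked cuticle proteins, inhibitors that bind Dishevelled, and they changed in opposite directions. Nkd1 was at 2.50, 2.25 and 2.66 FPKM in Grx2-/- and 1.18, 1.13 and 1.11 FPKM in Grx2+/+ libraries, 0.70 ± 0.063 higher (limma adjusted p = 3e-05). Nkd2 was at 1.52, 1.38 and 1.80 FPKM in Grx2-/- and 3.99, 4.47 and 4.01 FPKM in Grx2+/+ libraries, 1.01 ± 0.076 lower (adjusted p = 9.75e-06). Both ubiquitin ligases that clear Frizzled proteins were lower. Rnf43 had 11, 3 and 5 reads in Grx2-/- and 40, 66 and 59 in Grx2+/+ libraries, a Grx2+/+ to Grx2-/- ratio of 8.72 (exact interval 5.41 to 14.9, adjusted p = 0.00187 without the filter). Znrf3 was at 1.17, 1.26 and 1.30 FPKM in Grx2-/- and 1.58, 1.66 and 1.46 FPKM in Grx2+/+ libraries, 0.19 ± 0.061 lower (adjusted p = 0.0215). The Znrf3 call was lost without Grx2+/+ replicate 1 (0.0568) or Grx2+/+ replicate 2 (0.0621, limma adjusted p), and its adjusted p ran from 0.00319 to 0.1 over 16 alternatives.

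Outside the 46 genes, 6 lists of other pathway genes were compared by counts, against the 42.7% of all tested genes that were higher and the 24.6% that were lower, and by their median log2 fold change, against 0.085 over all tested genes. Genes that averaged at least 1 FPKM in only 1 group passed the filter through it and had to differ. The counts and medians include such genes. Of 7 tested genes of Wnt secretion and handling, 4 rose and 2 fell (median 0.65). In that list 7 genes averaged at least 1 FPKM in Grx2-/- and 6 in Grx2+/+ cells. Porcn, the acyltransferase that attaches the lipid to Wnt proteins, was at 2.25 ± 0.367 FPKM in Grx2-/- and 8.46 ± 0.563 FPKM in Grx2+/+ cells (log2 fold change -1.55, limma adjusted p = 2.22e-06). Wls, the carrier of lipidated Wnt proteins to the cell surface, was at 54.7 ± 2.31 FPKM in Grx2-/- and 84.2 ± 2.82 FPKM in Grx2+/+ cells (-0.61, adjusted p = 5.42e-06). Both of these genes act in ligand export. Trabd2b, a protease that cuts Wnt proteins, was at 16.9 ± 0.962 FPKM in Grx2-/- and 1.49 ± 0.118 FPKM in Grx2+/+ cells (2.84, adjusted p = 1.64e-08). The glypican Gpc3 also rose (1.49).

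The list of secreted antagonists also held Kremen1, which encodes a membrane protein. Of the 8 tested genes of that list, 4 rose and 4 fell, Kremen1 among the latter (-1.21). A mean of at least 1 FPKM was reached by 6 genes of the list in Grx2-/- and 6 in Grx2+/+ cells. Several, Dkk2 among them, thus passed the filter through 1 group, so nothing is read from these counts. The median of 0.027 includes Kremen1 and lies between rises and falls that were all larger in size. Among those that rose, Sfrp1, which binds Wnt proteins, averaged 90.0 FPKM in Grx2-/- and 20.4 FPKM in Grx2+/+ cells, and Dkk2, which binds Lrp5 and Lrp6, averaged 4.02 FPKM in Grx2-/- and 0.154 FPKM in Grx2+/+ cells. Sfrp2 had the largest log2 fold change of the list (5.15), and Dkk3, a divergent relative of the Dickkopf inhibitors, fell by 1.71 on the log2 scale. Of 19 tested genes of Dishevelled and the destruction complex, 3 rose and 11 fell, with a median log2 fold change of -0.14. Among them the Dishevelled binding proteins Dact1 (-1.09) and Dact3 (0.84) changed in opposite directions, and Dvl3, a Dishevelled gene, fell (-0.57). Tnks2, a tankyrase that marks Axin proteins for degradation, fell too (-0.42).

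Of 15 genes listed as nuclear co-factors of beta-catenin, 6 rose, 5 fell and 4 were not called (median 0.026). In that list 15 genes averaged at least 1 FPKM in Grx2-/- and 14 in Grx2+/+ cells. Ctnnbip1, an inhibitor that keeps beta-catenin from Tcf factors, rose (1.04), as did the co-repressor Tle4 (1.02), while Sox4 fell (-0.89). Ctnnd1, which encodes p120 catenin, is counted in that list though it is not such a co-factor, and it fell (-1.02). Of 13 other transcripts that are often used as readouts of beta-catenin, 7 rose and 6 fell (median 0.20). In that list 12 genes averaged at least 1 FPKM in Grx2-/- and 12 in Grx2+/+ cells, so some passed the filter through 1 group. Ccn4, first found as a gene induced by Wnt1, averaged 19.1 FPKM in Grx2-/- and 107 FPKM in Grx2+/+ cells (-2.42). Tnfrsf11b, which encodes the decoy receptor osteoprotegerin, averaged 8.18 FPKM in Grx2-/- and 64.3 FPKM in Grx2+/+ cells (-2.83). Ccnd1, the cyclin of cell cycle entry, averaged 192 FPKM in Grx2-/- and 58.9 FPKM in Grx2+/+ cells (1.69), and Ccn5 rose as well (1.44). These readouts thus changed in both directions. Of 12 tested planar cell polarity genes, 6 rose and 4 fell (median 0.12). In that list 11 genes averaged at least 1 FPKM in Grx2-/- and 11 in Grx2+/+ cells, so some passed the filter through 1 group. Ptk7, a co-receptor of that branch, fell (-0.74), and Prickle2 (1.00), Scrib (0.48) and Rhoa (0.24) rose.

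**Figure D4:**
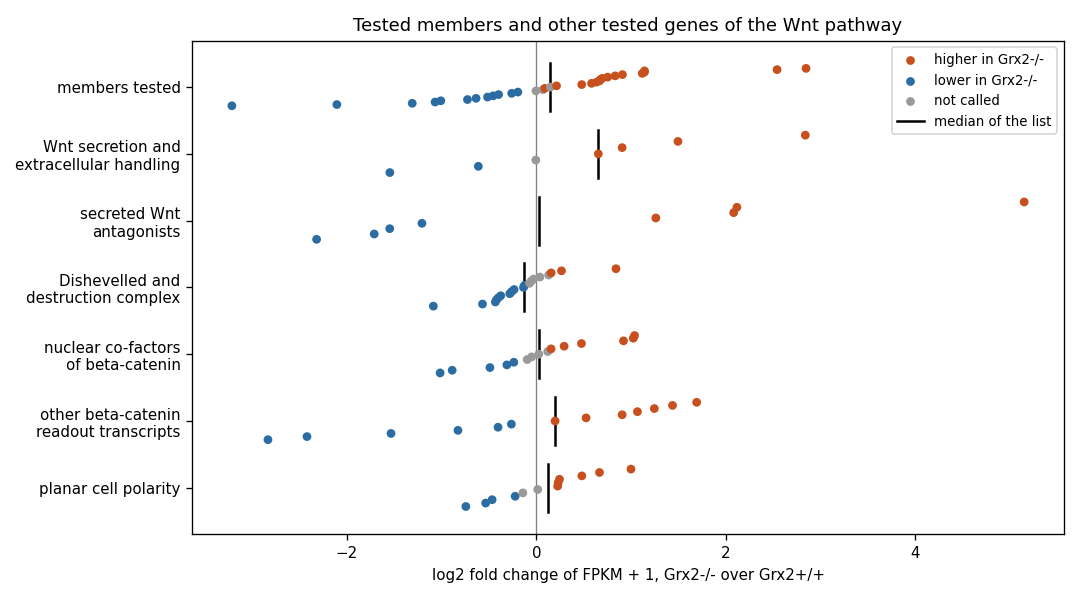
Log2 fold change of FPKM + 1, Grx2-/- over Grx2+/+, 1 point per tested gene, for the 31 tested members in the top row and the 6 lists of other pathway genes below; orange points were higher in Grx2-/-, blue lower, grey not called, and the black bar is the median of the row. Every row has points on both sides of 0, and among the lists they reach from -2.83 (Tnfrsf11b) to 5.15 (Sfrp2).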

How the data were processed

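Total RNA from 6 libraries of mouse bone marrow mesenchymal stem cells was made into libraries by a VAHTS Universal V6 kit, per the labels' protocols. The authors deposited 1 table of FPKM values. The submitters' processing notes name HISAT2, HTSeq, R 3.2.0 and the build GRCm39, with no role for each. The sources used here do not state annotation, filters or strand; an overlapping or antisense gene could therefore share reads with a member. A shift in the make-up of a library is not removed by FPKM.

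Values were used as deposited. Whole reads could be worked back for 22983 of 22984 genes within 0.001 reads; they describe low genes, and read intervals (exact, conditional binomial) cover counting error only. log2(FPKM + 1) values of genes with a mean of at least 1 FPKM (11083 genes) entered limma 3.58.1 under R 4.3.3 (eBayes with trend). Tests were two-sided, p-values were adjusted by Benjamini-Hochberg over all tested genes, and the threshold was 0.05. Every gene matched by the symbol rule is accounted for, and those with a mean of at least 1 FPKM in either group are given with all 6 values. From each other pathway list up to 4 tested genes with the smallest p are named, and Kremen1 besides. The members and lists were chosen with earlier results of these data known. Replicates differed by more than sampling noise (chi-square per gene 3.81 to 22.2), and Grx2-/- replicate 1 and Grx2+/+ replicate 2 stood furthest from their groups. The fit was tested on simulated data in which far fewer genes changed than were called here. That test does not cover changes as widespread as these. Alternatives were other pseudocounts, filters, scalings, limma settings (statmod 1.5.0), voom on the recovered reads, a replicate block, libraries left out and stricter thresholds. RefSeq promoter windows of GRCm38.p6 were matched by symbol. Figures were drawn with matplotlib 3.10.9.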

Additional observations from a re-analysis of the deposited data

How the results depend on the processing

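Of the 31 tested genes, 24 kept their direction and their side of the threshold under each alternative fitted gene by gene (16 or 17 per gene; the stricter adjusted p and the 2-fold minimum were applied to counts only). The count of members higher in Grx2-/- cells was 16, and it was 8 with a mean of at least 5 FPKM, which tests fewer genes, and 5 with a 2-fold minimum on the scale of FPKM + 1. The count lower in Grx2-/- cells was 12, and it was 20 with no filter, 5 with a mean of at least 5 FPKM and 5 with a 2-fold minimum; of all genes, 7465 were called and 1111 with that minimum. Leaving out each library in turn gave 15 to 16 higher, 10 to 12 lower and 6563 to 7564 genes in all, and leaving out both libraries that stood apart gave 15, 11 and 7675. Axin1 (log2 fold change 0.07, not called) was -0.026 with median-of-ratios scaling and -0.072 after quantile normalization, Ctnnb1 was -0.012 with median-of-ratios scaling, and Fzd2 ran from -0.028 to 0.035 when single libraries were left out; the cause was not tested. Calls of Ctnnb1, Rspo2, Tcf7l1 and Znrf3 were lost under some alternatives, and Fzd2 and Wnt5b gained a call under 1 each. Same-numbered libraries deviated together with correlations of 0.107, 0.124 and 0.0199, so the numbers were not taken as pairs; 4 of 6 libraries correlated best with their own number, a hint from the data only. With the replicate number as a block, 15 were higher, 12 lower and 7562 genes called in all; among the tested members the block ended the call of Ctnnb1 (adjusted p = 0.0598) and changed no other call. Depth limits Wnt1, Wnt6, Rspo1, Rspo4 and Fzd10, each with at most 14 reads in any library.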
